A study of Mus musculus with 6 samples.

Results

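The genes described here encode the Wnt signalling pathway itself: secreted Wnt ligands, their receptors, secreted inhibitors, the cytoplasmic components around beta-catenin, and the nuclear factors that beta-catenin binds. The members were a fixed list of 43 genes, taken by the gene symbol of each probe, and all 43 had a probe among the 19057 named genes of the array. They are components of the pathway and not its transcriptional targets. Probes annotated as Tcf3 were assigned by gene identifier, and the 2 probes of the E2A factor that now carries that symbol were not counted as Tcf7l1.

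The samples were mouse embryonic stem cells grown with 15% foetal serum and leukemia inhibitory factor (LIF) on a layer of mouse embryonic fibroblasts that mitomycin C had stopped from dividing (feeder cells). The cells of both groups were electroporated with pHYPER short hairpin vectors, and puromycin was added 24 h later for 48 h. The tested cells carried a hairpin against Chd8, a chromatin remodelling ATPase of the CHD family, and are called shChd8 (3 arrays). The other cells are labelled control (3 arrays), and the content of their vector is not stated there. The labels name 1 hairpin and no rescue, so an effect of the hairpin on other transcripts and an effect of less Chd8 cannot be told apart. Feeder cells were present in both groups.

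Secreted Wnt proteins carry a lipid that Porcn attaches, and they bind Frizzled (Fzd) receptors together with the co-receptors Lrp5 and Lrp6. Without a ligand, a complex of Axin, Apc, casein kinase and glycogen synthase kinase marks beta-catenin (Ctnnb1) for destruction, and with a ligand Dishevelled (Dvl) proteins block that complex. Beta-catenin then enters the nucleus and binds TCF factors. In mouse embryonic stem cells Tcf7l1 is known as a repressor of pluripotency genes whose repression beta-catenin relieves.

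Values below are normalized log2 intensities of single probes, and changes are shChd8 minus control on that scale. Intensities of different probes are not read as different amounts of RNA, because probes differ in binding. Probes entered the test with a detection p-value below 0.01 on 3 or more of the 6 arrays, and a probe was called when its limma p, adjusted by Benjamini-Hochberg over all 16732 tested probes, of which 14568 had a gene symbol, was under 0.05. A gene was called when 1 of its tested probes was called. The arrays had mean intensities of 419.5 to 497.5 in shChd8 and 389.9 to 413.1 in control before normalization, and 16632 to 17440 probes were detected per shChd8 array, against 16482 to 16687 per control array. Chd8 itself read 8.71, 8.64 and 8.36 in shChd8, against 9.90, 9.97 and 10.02 in control, a change of -1.39 (SE 0.15, limma adjusted p = 0.00907) that left 38.1% of the control level. That call was lost without shChd8 replicate 1 (adjusted p = 0.0527). It was also lost with the median of the fibroblast markers described below as a covariate (-1.56, limma adjusted p = 0.270). All 12 listed stem cell markers, among them Pou5f1, Sox2 and Nanog, were detected on all 6 arrays.

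Fibroblast markers, genes that feeder cells are known to express, gave higher values in the shChd8 arrays. Of 24 tested markers 21 had a change above 0, and the median was 0.82, while Fbln2 and Tagln were the 2 called. The summed intensity of the tested markers was 16540 to 32724.5 in shChd8 and 9214 to 14805 in control, and between 24 and 25 of the 28 markers with a probe were detected per shChd8 array, against 21 to 24 per control array. Among the defining markers Postn and Col5a2 were detected on no array. In these mixed samples, more feeder cells and more RNA of these genes per cell, in feeder or stem cells, cannot be told apart. Of 9 endoderm markers 5 were detected on no array and 4 were tested, with 1 called, Amn at -1.01 (adjusted p = 0.0295).

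Of the 43 pathway genes, 30 were measured well enough to be tested, each through at least 1 probe detected on all 6 arrays. Another 9 were detected on no array: the ligands Wnt4, Wnt9a and Wnt11, the receptors Fzd1, Fzd2 and Fzd4, the inhibitor Dkk2, the Dishevelled gene Dvl3 and the casein kinase gene Csnk1a1. The remaining 4 were detected on 1 or 2 arrays and were not tested. Among these Wnt10a was detected on 2 shChd8 arrays and 0 control arrays, with 5.06, 5.19 and 5.13 in shChd8 against 4.69, 4.52 and 4.61 in control. Fzd8, Fzd9 and Dvl2 were the other ones, each at the edge of detection. A probe that was not detected says only that its signal was not above background; the tested members had 52 tested probes of the 95 probes of all members.

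**Figure D1:**
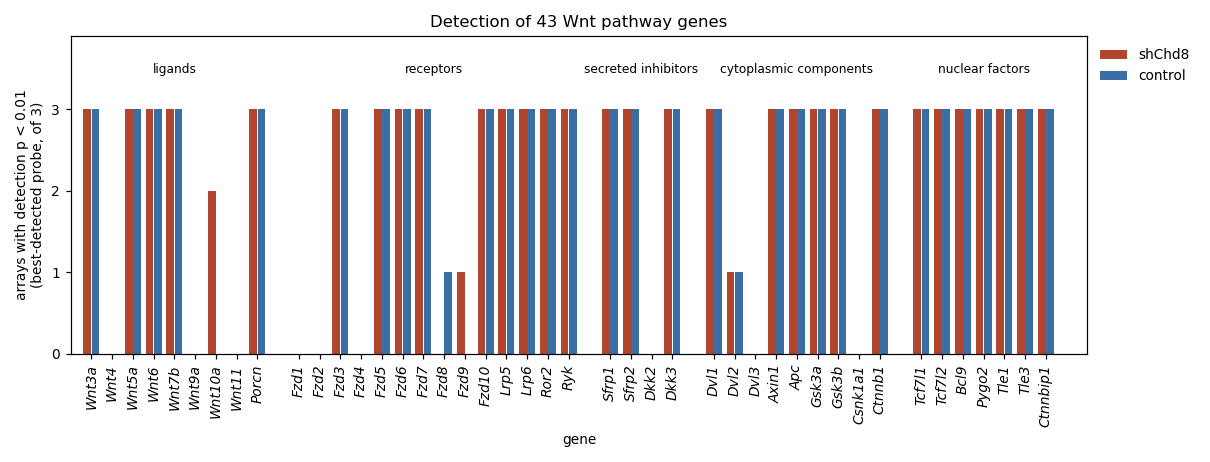
Number of arrays, of 3 per group, on which the best-detected probe of each of the 43 genes had a detection p-value under 0.01, with shChd8 in red and control in blue. All 30 tested genes reach 3 in both groups, 9 genes are at 0 in both groups, and Wnt10a, Fzd8, Fzd9 and Dvl2 reach 1 or 2 arrays.

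Wnt3a and Sfrp1 were called lower in the shChd8 arrays, and no other member was called. These 2 of 30 tested members (6.67%) stand beside 5.17% of all 9711 tested genes, so the share called was near that of all genes. In the downward direction 3.05% of all genes were called, and in the upward direction, where 0 members were called by limma, 2.12%. At an unadjusted p under 0.05 there were 10 members (33.3%), against 32.4% of all genes. On the brightest probe of each gene, the median change was -0.0019 for the members and -0.02 for all genes, with 15 members above 0 and 15 below. The median absolute change was 0.20 for the members and 0.26 for all genes. The groups did not overlap on the brightest probe of 6 members (20%), against 32.8% of all genes. Changes lay within 0.5 of 0 for 25 of the 30 members and for 7567 of the 9711 genes.

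The calls depended on single arrays. Leaving out shChd8 replicate 1, shChd8 replicate 2, control replicate 1 or control replicate 3 left 0 members called, with 7, 10, 8 and 6 members at an unadjusted limma p under 0.05. Without shChd8 replicate 3 Wnt3a alone was called, and without control replicate 2 Wnt3a, Sfrp1 and Wnt5a were. That Sfrp1 call came from its brighter probe, since its other tested probe then had a limma adjusted p of 0.0615. The number called over all genes was 11 without shChd8 replicate 1, 29 without shChd8 replicate 2, 283 without shChd8 replicate 3, 34 without control replicate 1, 651 without control replicate 2 and 33 without control replicate 3, against 502 with all arrays. Nothing in the labels says that the arrays of a group were separate cultures, and the p-values then cover the spread of these samples alone, which can be technical.

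**Figure D2:**
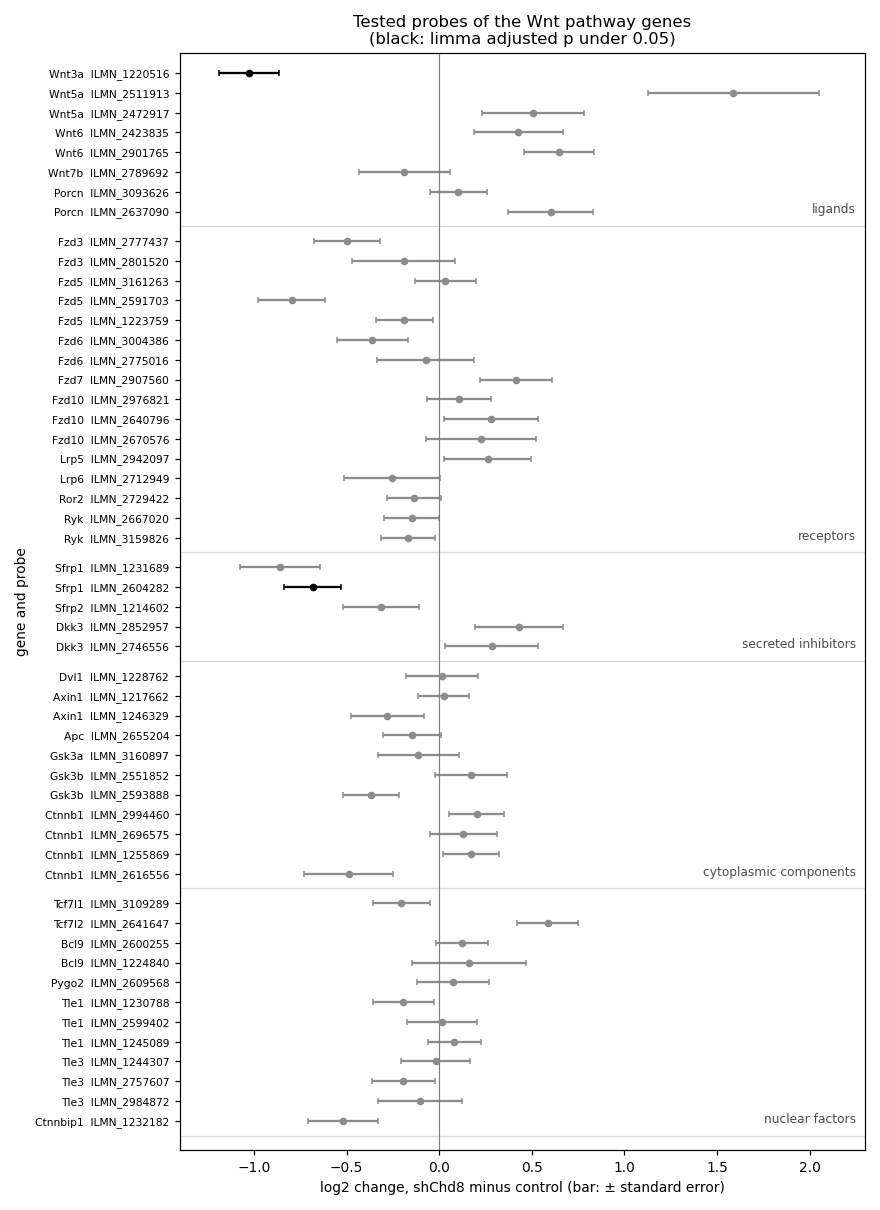
Log2 change of each of the 52 tested probes of the Wnt pathway genes, shChd8 minus control, with its standard error, grouped by role, black where called. The called probes are those of Wnt3a at -1.03 and Sfrp1 at -0.68, and the probe farthest above 0 is that of Wnt5a at 1.59, whose standard error of 0.46 is the widest.

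Of the ligand genes and Porcn, 1 of 5 tested fell and 0 were called higher by limma, while 4 had an unadjusted p under 0.05. Beside this and the role groups below stand 5.17% of all genes called and 32.4% at an unadjusted p under 0.05. These counts take the lowest p among the probes of a gene. On their brightest probes Wnt6 and Porcn had an unadjusted limma p of 0.112 and 0.523. Wnt3a encodes a ligand that stabilises beta-catenin and is widely used to activate the pathway in stem cell cultures. Its single probe (ILMN_1220516) read 5.16, 5.15 and 5.03 in shChd8, against 6.20, 5.91 and 6.31 in control. The shChd8 arrays lay close together and all below the control arrays. The change was -1.03 (SE 0.16, limma adjusted p = 0.0230). On this scale, which includes an offset of 16, the shChd8 level was 49.1% of control. The probe was dim, so this share depends on the background correction. An exact permutation test, two-sided, returned p = 0.1, the lowest value possible with 3 arrays per group. The call was lost without shChd8 replicate 1 (adjusted p = 0.108), without shChd8 replicate 2 (0.0923), without control replicate 1 (0.0793) and without control replicate 3 (0.0869). Without background correction the change was -0.37 (adjusted p = 0.0383).

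Since Wnt3a carried the lowest p of the members, the sequence before its start is shown. Wnt3a lies on chromosome 11 at positions 59248036 to 59290751 of GRCm38.p6. The 250 bases upstream of its RefSeq start, chr11:59290752-59291001 on the minus strand, read as follows, 5′ to 3′, with CG dinucleotides in capitals.
Wnt3a: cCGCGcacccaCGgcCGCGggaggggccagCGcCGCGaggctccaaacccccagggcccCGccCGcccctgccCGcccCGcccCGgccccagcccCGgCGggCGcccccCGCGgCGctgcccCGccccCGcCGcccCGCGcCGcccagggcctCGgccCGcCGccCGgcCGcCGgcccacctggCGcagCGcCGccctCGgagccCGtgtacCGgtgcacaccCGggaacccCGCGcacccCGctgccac
G and C made up 87.6% of these bases, with 41 CG dinucleotides, against medians of 52.4% and 6 over 32851 such windows of mouse genes. The TCF core motifs CTTTGA and CTTTGT, searched on both strands, are not among these letters, and 27.6% of all windows hold at least 1 of them. Those windows were not matched for base content, so no conclusion is drawn from the absence. Of the 43 members 28 had such a window in the RefSeq table, and Sfrp1 was not among them.

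Wnt5a, a ligand known for signalling without beta-catenin through receptors such as Ror2, had the largest change among the tested members and was not called. Its brightest probe (ILMN_2511913) read 7.52, 8.17 and 7.16 in shChd8, against 5.77, 7.12 and 5.20 in control. The groups did not overlap but nearly met, at 7.16 in shChd8 replicate 3 and 7.12 in control replicate 2. The change was 1.59 (SE 0.46, limma adjusted p = 0.0827), and without control replicate 2 it was 2.15 (adjusted p = 0.0239). The probe ILMN_2472917, detected on 3 of 6 arrays, had a change of 0.51 (adjusted p = 0.287), and a further probe was detected on no array. The median fibroblast marker was higher in shChd8 too, with deviations of 0.89, 0.46 and -0.03 in shChd8 and -0.17, -0.32 and -0.83 in control, and the part of feeder RNA in the Wnt5a values was not tested apart from the fit that follows. With that median as a covariate, which overlaps with the groups, the Wnt5a change was 0.84 (SE 0.73, adjusted p = 0.757), while that of Wnt3a was -1.0 (SE 0.27, adjusted p = 0.381). That fit called 0 of all genes by limma, with 1215 of 9711 at an unadjusted p under 0.05, and 3 of these were members. Chd8 itself had -1.56 in that fit (SE 0.25, limma adjusted p = 0.270). The changes in that fit were 0.52 (SE 0.32) for Wnt6, 0.81 (SE 0.39) for Porcn, 0.86 (SE 0.25) for Tcf7l2 and -0.52 (SE 0.25) for Sfrp1. Each is on the probe with the lowest p, with limma adjusted p-values of 0.402 to 0.645.

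**Figure D3:**
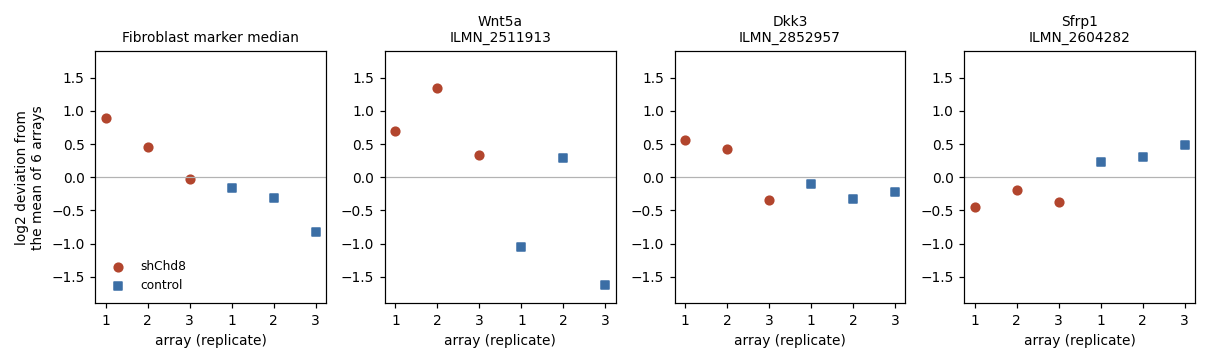
Deviation from the mean of the 6 arrays, in log2 units, of the median fibroblast marker and of 1 probe each of Wnt5a, Dkk3 and Sfrp1, for the 3 shChd8 arrays (red circles) and the 3 control arrays (blue squares). The marker median runs between 0.89 and -0.03 in shChd8 and between -0.17 and -0.83 in control, and control replicate 2 is the highest control array for Wnt5a.

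Wnt6, a ligand of epithelia, had a change of 0.65 (SE 0.19, limma adjusted p = 0.0830) on the probe ILMN_2901765, with 6.36, 5.83 and 6.05 in shChd8 against 5.22, 5.63 and 5.45 in control. The groups did not overlap on this probe. With median scaling, where the median of all genes was 0.18, the change was 0.83 (limma adjusted p = 0.0273), the only call of Wnt6 in 16 alternatives. The groups did overlap on its brighter probe, where the change was 0.43 (adjusted p = 0.302). Porcn, the acyltransferase that Wnt proteins need for secretion, gave different values by probe. Its dimmer probe (ILMN_2637090) read 6.55, 6.22 and 7.0 in shChd8, against 5.85, 6.29 and 5.82 in control, a change of 0.60 (limma adjusted p = 0.148) with overlapping groups. Its brighter probe read 10.16, 10.11 and 10.45 in shChd8, against 10.06, 10.20 and 10.14 in control, a change of 0.10 (adjusted p = 0.712). The dimmer probe lay closer to the brighter one in every shChd8 array than in every control array, and the dimmer minus the brighter probe was higher in shChd8 by 0.50 on average (exact two-sided permutation p = 0.1, the smallest possible). These probes were set against each other after their values were seen, as were those of Fzd5 and Gsk3b below. Wnt7b, the remaining tested ligand, had a change of -0.19 (adjusted p = 0.669).

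Among the receptor genes limma called 0 of 9 tested, and Fzd5 and Fzd3 had an unadjusted p under 0.05. Fzd5, a Frizzled receptor, came closest. Its probe ILMN_2591703 read 7.42, 7.47 and 7.33 in shChd8, against 8.01, 8.54 and 8.05 in control. All shChd8 arrays were below all control arrays, with a change of -0.80 (SE 0.18, limma adjusted p = 0.0505). Across the alternatives run, Fzd5 was called in 5 of 16, among them the fit without background correction (-0.57, adjusted p = 0.0199). Its brightest probe (ILMN_3161263) showed no such pattern, with 11.02, 10.98 and 10.88 in shChd8 against 10.66, 11.12 and 11.01 in control and a change of 0.03 (95% interval -0.35 to 0.41). The value of ILMN_2591703 minus that of ILMN_3161263 did not overlap between the groups, and it changed by -0.83 in shChd8 on average (exact two-sided permutation p = 0.1, the smallest possible). The third tested Fzd5 probe had a change of -0.19 (adjusted p = 0.488). This comparison of probes was chosen after their values were seen, and the transcripts that each probe binds were not analysed here.

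Fzd3, a Frizzled known for axon guidance and planar cell polarity, read 5.39, 5.64 and 5.37 in shChd8, against 6.21, 5.69 and 5.99 in control on the probe ILMN_2777437. The groups did not overlap, and the change of -0.50 (SE 0.18) was not called (limma adjusted p = 0.132). Its other tested probe had -0.19 (adjusted p = 0.701). The other receptors differed less. Fzd7, the Frizzled known as the main one of human embryonic stem cells, had 9.05, 9.11 and 8.59 in shChd8 against 8.74, 8.31 and 8.45 in control, a change of 0.42 (limma adjusted p = 0.224) with overlapping groups. Changes on the brightest probes were -0.36 for Fzd6 and 0.11 for Fzd10. The co-receptors Lrp5 and Lrp6 had 0.26 and -0.25, and Ror2 and Ryk, receptors of the branch without beta-catenin, had -0.14 and -0.15. All of these had overlapping groups.

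Among the secreted inhibitors 1 of 3 tested fell. Sfrp1 encodes a secreted Frizzled-related protein that binds Wnt ligands outside the cell. Its called probe (ILMN_2604282) read 7.20, 7.46 and 7.27 in shChd8, against 7.89, 7.95 and 8.14 in control, a change of -0.68 (SE 0.15, limma adjusted p = 0.0499). Its brighter probe (ILMN_1231689) read 8.45, 8.90 and 8.90 in shChd8, against 9.54, 9.32 and 9.99 in control, a change of -0.86 (SE 0.22, adjusted p = 0.0606). Both probes thus had all shChd8 arrays below all control arrays, and p was 0.1 for each in the exact permutation test (two-sided). The call lay at the threshold. With any 1 array left out the limma adjusted p of ILMN_2604282 was between 0.0615 and 0.163, with changes of -0.76 to -0.61. With median scaling its change was -0.44 (adjusted p = 0.129), in a setting where the median of all genes was 0.18. On the brightest probe of each gene, 1 member was called, Wnt3a, beside 4.30% of all genes.

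Sfrp2, its relative, had a change of -0.32 (limma adjusted p = 0.370) with overlapping groups. Dkk3, a secreted protein of the Dickkopf family, read 8.53, 8.39 and 7.63 in shChd8, against 7.87, 7.65 and 7.74 in control. On this probe, its brightest, the first pair of shChd8 arrays was high and the remaining one lay below all control arrays. The change of 0.43 (limma adjusted p = 0.296) was within the spread. Its other tested probe read 7.99, 7.93 and 7.22 in shChd8, against 7.81, 7.28 and 7.20 in control, a change of 0.28 (adjusted p = 0.522). There shChd8 replicate 3 was not below all control arrays. The shChd8 array that was low for Dkk3 was also the shChd8 array with the lowest fibroblast marker median, and the part of feeder RNA in the Dkk3 values was not tested.

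**Figure D4:**
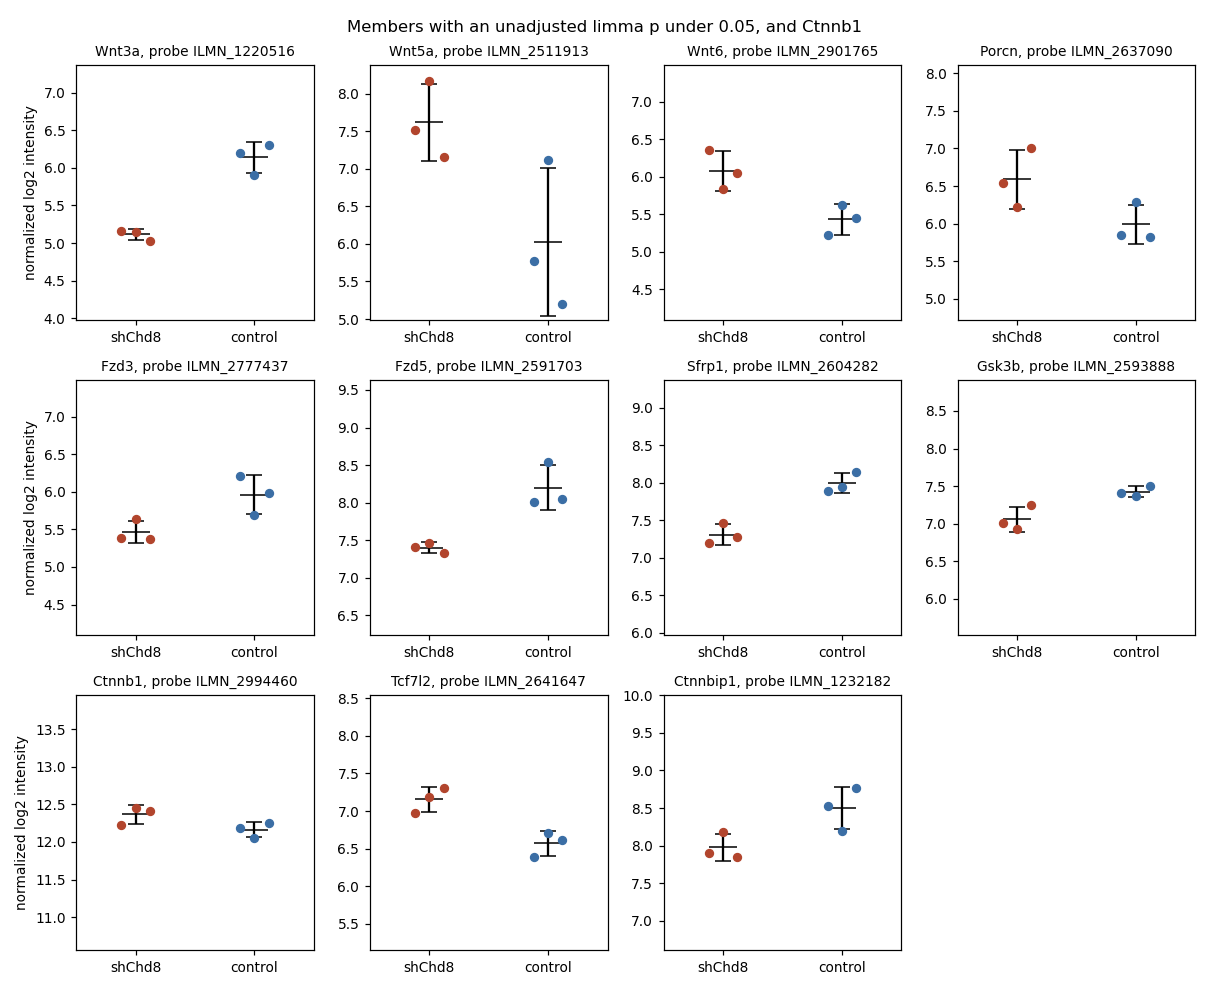
Normalized log2 intensity per array for the 10 members with an unadjusted limma p under 0.05, on the probe with the lowest p, and for Ctnnb1 on its brightest probe, shChd8 in red and control in blue. Bars are the mean and SD of 3 arrays, all panels span the same number of log2 units, and Wnt3a and Sfrp1 are the called genes.

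Among the cytoplasmic components limma called 0 of 6 tested, with 1, Gsk3b, at an unadjusted p under 0.05. Ctnnb1, which encodes beta-catenin, read 12.23, 12.46 and 12.42 in shChd8, against 12.19, 12.05 and 12.25 in control on its brightest probe. The groups overlapped, and the change was 0.20 (95% interval -0.13 to 0.54, limma adjusted p = 0.426, exact two-sided permutation p = 0.2). Another pair of Ctnnb1 probes detected on all arrays had changes of 0.13 and 0.17. The probe ILMN_2616556 had -0.49 (adjusted p = 0.243) and was detected on 1 shChd8 array and 2 control arrays. The intervals of the probes detected on all arrays thus leave room for a change of up to about 0.54 upward and, on the probe ILMN_2696575, -0.28 downward.

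Gsk3b, one of the kinases that phosphorylate beta-catenin, differed between its probes. On ILMN_2593888 it read 7.0, 6.92 and 7.24 in shChd8, against 7.41, 7.37 and 7.50 in control. These groups did not overlap, with a change of -0.37 (SE 0.15, limma adjusted p = 0.171). On its brighter probe the change was 0.17 (adjusted p = 0.615), and the difference between the probes overlapped between the groups (exact two-sided permutation p = 0.3). The related kinase gene Gsk3a had a change of -0.11. The scaffold gene Axin1 had 0.03 on its brightest probe and -0.28 on its other probe (adjusted p = 0.406), the tumour suppressor gene Apc -0.15 and the Dishevelled gene Dvl1 0.02, all with overlapping groups.

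Among the nuclear factors limma called 0 of 7 tested, with Tcf7l2 and Ctnnbip1 at an unadjusted p under 0.05. Tcf7l2 encodes a TCF factor through which beta-catenin activates genes. Of its 6 probes 1 was tested (ILMN_2641647), which read 6.97, 7.19 and 7.30 in shChd8, against 6.38, 6.71 and 6.62 in control. All shChd8 arrays were above all control arrays, and the change was 0.59 (SE 0.16, limma adjusted p = 0.0748). With median scaling, where the median of all genes was 0.18, it was 0.84 and called (adjusted p = 0.0244). Ctnnbip1, an inhibitor that keeps beta-catenin from binding TCF factors, read 7.89, 8.19 and 7.84 in shChd8, against 8.53, 8.20 and 8.76 in control. The groups were separated only narrowly, by shChd8 replicate 2 and control replicate 2, and the change was -0.52 (SE 0.19, adjusted p = 0.133).

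Tcf7l1, the TCF repressor of stem cells, had a change of -0.20 (95% interval -0.55 to 0.15, limma adjusted p = 0.439). Bcl9 and Pygo2, which link beta-catenin to chromatin, had 0.12 and 0.07 on their brightest probes. The Groucho-type corepressor genes Tle1 and Tle3 had -0.19 and -0.02. The groups overlapped for each of these.

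A further list of 84 pathway genes outside the members gave 41 tested genes, of which 1 rose and 3 fell (9.76%), beside 5.17% of all genes. Their median change was 0.02, with 23 above 0 and 18 below, and 16 had an unadjusted p under 0.05 (39.0%). Celsr3, an atypical cadherin of the planar cell polarity branch, read 6.09, 6.05 and 6.08 in shChd8, against 7.26, 7.29 and 7.40 in control, a change of -1.25 (SE 0.14, limma adjusted p = 0.00907). Its relative Celsr1 read 5.41, 5.34 and 5.37 in shChd8, against 6.16, 6.20 and 6.32 in control, a change of -0.86 (SE 0.14, adjusted p = 0.0258). The arrays of each group lay close together for both cadherins, but Celsr1 was dim, and the changes depended on the background correction. Without it they were -0.67 for Celsr3 (limma adjusted p = 0.00351) and -0.33 for Celsr1 (0.0468). With an intensity trend the SE of Celsr1 was 0.22 (limma adjusted p = 0.0273). The call of Celsr3 was lost without shChd8 replicate 1 (adjusted p = 0.0580) and without shChd8 replicate 2 (0.0512). That of Celsr1 was lost without either of these arrays (0.117 and 0.101) and without control replicates 1 and 3 (0.0766 and 0.0906).

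Wls, the carrier that brings Wnt proteins to the cell surface, rose by 1.02 (SE 0.22, limma adjusted p = 0.0445) on the probe ILMN_2704184, with 8.10, 7.71 and 7.32 in shChd8 against 6.59, 6.91 and 6.58 in control. Its 3 other tested probes had changes of 1.10, 1.18 and 0.83, and the adjusted p of the brightest was 0.116. The shChd8 arrays followed the order of the fibroblast marker median and the control arrays did not. With that median as a covariate the change of Wls was 0.49 (SE 0.29, limma adjusted p = 0.633). That covariate overlaps with the groups, and its fit called 0 of all genes. The part of feeder RNA in the Wls values was not tested apart from this fit. The call was also lost without shChd8 replicates 1 and 2 (0.140 and 0.130) and without control replicates 1 and 3 (0.116 and 0.124). Tle6, a divergent Groucho relative known from the mouse egg, fell by 0.74 on the log2 scale (SE 0.16, limma adjusted p = 0.0467), with 8.33, 8.32 and 8.40 in shChd8 against 9.30, 8.85 and 9.13 in control. The Tle6 call held only without control replicate 2 (0.0360) among the removals of 1 array, and the others gave 0.0648 to 0.151.

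The other genes of that list with the lowest p were not called. Tle4, a Groucho corepressor, had a change of 0.84 (limma adjusted p = 0.0570) on 1 probe and 0.27 on its brightest. The former probe was detected on 3 shChd8 arrays and 1 control array, so it passed the filter through the group where it was high. Tle5, a short Groucho relative, had -0.53 (adjusted p = 0.0919). Notum, an enzyme that removes the lipid from Wnt proteins, had 1.10 (adjusted p = 0.0739), with control replicate 2 at 7.88 near the shChd8 arrays at 8.08, 8.35 and 8.21 and the other control arrays at 6.88 and 6.58. Its 2 other tested probes had changes of 0.33 and 0.50 (adjusted p = 0.575 and 0.188). Without control replicate 2 the Notum change was 1.48 (adjusted p = 0.0182). The co-receptor Ptk7 had 0.51 (adjusted p = 0.0708) and the kinase Tnik, which acts on TCF factors, -0.67 (adjusted p = 0.0904). Rspo3, a secreted protein that enhances Wnt signalling through Lgr receptors, had 1.09 (adjusted p = 0.110), and 0.06 (SE 0.41) with the fibroblast marker median as a covariate. With that covariate Tle4 had 1.39 (SE 0.24), Notum 0.87 (SE 0.52), Ptk7 0.56 (SE 0.23), Tle5 -0.53 (SE 0.27) and Tnik -0.76 (SE 0.35). Each is on its probe with the lowest p, with limma adjusted p-values of 0.270 to 0.643.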

How the data were processed

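The authors deposited a non-normalized table of linear probe intensity with, per the file headers, a detection p-value for every probe on every array. Per the submitters' processing notes GenomeStudio was used (version: not given in the sources used here). A second deposited table holds normalized intensity, whose columns keep the rank order of the non-normalized ones and share their quantiles.

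The non-normalized intensity was corrected and quantile normalized with neqc (offset 16) in limma 3.58.1 under R 4.3.3, and values are log2. Each tested probe was fitted by group alone (lmFit, eBayes, two-sided), with Benjamini-Hochberg adjustment over all tested probes. The fit was tested on simulated data. Of 45281 probes 34885 had 1 gene symbol, 18 several and 10378 none, and 34807 symbols were updated through RefSeq (GRCm38.p6). The number of arrays limits the precision. The 6 arrays shared 1 slide, so a position on the slide cannot be told apart from its group.

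The members and lists were chosen with earlier results of these data known. Values per array are given for each member with a probe at an unadjusted p under 0.05 and for Ctnnb1. Outside the members, the called genes and the 6 with the next lowest p are named. Alternatives changed the background correction, scaling, filter, moderation, probe choice, covariate and arrays, and each removal of 1 array repeated the normalization.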

Additional observations from a re-analysis of the deposited data

How the results depend on the processing

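The number of members called, 2 in the analysis reported, was 4 without background correction, with median scaling, with the deposited normalized values and with an intensity trend, 1 without a filter, with detection on at least 1 array and on brightest probes, and 0 with the fibroblast covariate. Leaving out 1 array gave 0 to 3. For the other pathway genes the number was 10 with median scaling, 2 with detection on at least 1 array and 0 with the covariate, and 0 to 6 with 1 array left out. Over all genes it was 1323 without background correction, 815 with normexp without controls, 1341 with median scaling (1165 higher and 176 lower, where the median of all genes was 0.18), 1326 with the deposited values, 259 without a filter, 833 with detection on all 6 arrays, 224 with detection on at least 1 array, 1303 with the trend and 0 with the covariate, and 11 to 651 with 1 array left out. On the brightest probe the changes of Fzd5 (0.034), Axin1 (0.03), Gsk3b (0.17) and Ctnnb1 (0.20) had the opposite sign to those on the probe with the lowest p. Wnt3a kept its call in 11 of 16 alternatives, with changes of -1.17 to -0.37. Among these alternatives, the fits without background correction and with the deposited values were nearly the same (Wnt3a -0.370 and -0.371). The counts out of 16 include both. For Sfrp1 the followed probe was ILMN_2604282, except in the brightest-probe setting, and it was called in 5 of 16. Both genes stayed below 0 in all of these. Without control replicate 2 Sfrp1 was called through its brighter probe, a call outside those 5. Wnt5a was called in 5 of 16 and Fzd5 in 5 of 16. A change of filter or moderation leaves a log2 change as it was. The cause of these differences was not tested. Signal over background limits Wnt3a and Celsr1, which were dim. No paired analysis was possible because the labels give no replicate numbers that groups share.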
